A study of Homo sapiens with 32 samples.

Results

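The histone genes whose transcripts were counted in polyadenylated RNA were described across 32 RNA-seq libraries of 2 human cell lines. Members were chosen by name: rows whose symbol begins with HIST1H to HIST4H, H2AF, H1F or H3F, without pseudogene symbols, and with at least 20 counts summed over the 32 libraries. Of 60332 rows in the table, 117 matched the names, 24 were pseudogene symbols, 31 of the remaining 93 fell under 20 counts (15 of them at 0), and 62 were kept. They comprise 50 genes of the HIST1, HIST2, HIST3 and HIST4 clusters, called HIST genes here (16 H2B, 11 H2A, 10 H3, 8 H4 and 5 linker H1 genes), 11 variant genes outside those clusters, and H1FX-AS1, an antisense RNA that the names also catch and that encodes no histone. Just inside the count limit were HIST1H2AH with 21 counts and HIST1H1B and HIST1H4B with 22 each; just outside were HIST1H2BI, HIST2H2AB and HIST1H4J with 12 each and HIST1H3F with 11.

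The study asked how cell cycle arrest, cGAS-STING loss, defective end joining and p53 loss alter the inflammatory response to irradiation. Each of 16 groups had 2 libraries. MCF10A, a non-tumorigenic human breast epithelial line, was used in 2 experiments, and hTERT RPE-1, a telomerase-immortalised human retinal pigment epithelial line, in another. The first experiment held untreated WT MCF10A, WT 3 and 5 days after 10 Gy with DMSO, WT 5 days after 10 Gy with a CDK1 inhibitor (CDK1i), and cGAS KO, STING KO and XRCC4 KO cells 5 days after 10 Gy. In the second, all MCF10A cells were collected 3 days after 10 Gy: WT, p53 KO, XRCC4 KO with and without an ATR inhibitor (ATRi), and XRCC4 p53 DKO with and without ATRi. The third held RPE-1 WT, RPE-1 labelled WT cGAS and RPE-1 p53 KO, all 3 days after 10 Gy and all with ATRi. CDK1i and ATRi were added 1 h before irradiation and kept until collection. Knockouts were made with lentiviral CRISPR-Cas9, drug selection and single-cell cloning, so a genotype cannot be told apart from its clone. DMSO is named only for the irradiated WT groups of the first experiment, and there was no unirradiated knockout. Nothing in the labels says whether paired libraries come from separate cultures, and p-values therefore measure only the spread between these libraries, which may be technical.

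Histone proteins wrap DNA into nucleosomes, 2 copies each of H2A, H2B, H3 and H4 forming the core and H1 binding the linker DNA. Most core and H1 histones are made in S phase from the HIST clusters. Their mRNAs normally end just after a conserved stem-loop, bound by SLBP, and carry no poly(A) tail, so that selection for poly(A) leaves most of them behind. Many of the same genes also have a downstream poly(A) signal, and longer polyadenylated transcripts from them are known from differentiated or non-dividing cells. Variant genes such as H2AFZ (H2A.Z), H3F3A and H3F3B (H3.3), H2AFY (macroH2A1) and H1F0 (H1.0) give polyadenylated mRNA. The counts therefore report polyadenylated histone RNA, not total histone mRNA.

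The stem-loops below are shown because they mark where the usual, tail-less transcript of each gene stops. The sequences and their positions come from GENCODE release 29 transcripts on GRCh38, are written as mRNA-sense DNA 5′ to 3′, and have the 16 bases of the stem-loop in capitals.
HIST1H2AC: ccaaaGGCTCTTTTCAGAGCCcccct
HIST2H2BE: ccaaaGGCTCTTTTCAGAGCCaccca
HIST1H2BD: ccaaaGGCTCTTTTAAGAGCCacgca
HIST3H2A: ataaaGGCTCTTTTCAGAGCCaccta
HIST1H4H: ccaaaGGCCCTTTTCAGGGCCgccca
H2AFX: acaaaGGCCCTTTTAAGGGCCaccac
HIST1H2AC lies at chr6:26124664-26124689 on the plus strand, HIST2H2BE at chr1:149886183-149886208 on the minus strand, and HIST1H2BD at chr6:26158582-26158607 on the plus strand. HIST3H2A lies at chr1:228457364-228457389, HIST1H4H at chr6:26285126-26285151 and H2AFX at chr11:119094893-119094918, all 3 on the minus strand. Each of these sites is exonic, downstream of the coding part. The H2A.X gene H2AFX is the 1 variant among the 11 with the motif. Annotated transcripts ran on past the stem-loop by 1114 bases in HIST1H2AC, 1729 in HIST2H2BE, 390 in HIST3H2A, 630 in HIST1H4H and 1044 in H2AFX, but by 39 in HIST1H2BD. The longer annotated transcript of HIST1H2BD, of 789 bases, ends after a poly(A) signal without the motif past its coding part. The letters searched, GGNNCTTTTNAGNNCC on the transcript strand, occurred in 52 of 19702 coding genes, or 0.264%.

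Genes with an annotated polyadenylated end held most of the HIST counts, but not most of the level per length. A gene was put in that class if a coding transcript ended within 40 bases of a poly(A) signal and, where it had the stem-loop, at least 100 bases past it. This class held 16 of the 50 HIST genes, 14 of them with the stem-loop, and 76.0% of all HIST counts. Another 18 genes were annotated with the coding part only and held 18.8% of the counts, HIST1H1C (linker histone H1.2) and HIST1H2BK among them. A further 11, called short end here, had bases after the coding part that did not meet the rule, whatever their length, and held 3.92%. HIST3H2BB is among them with 1960 such bases. Another 5 whose gene ID had no coding transcript in that release held 1.25%. Counts favour longer transcripts: of the summed HIST FPKM the polyadenylated class held 48.3% and the coding-part class 45.2%. Median level, as the authors' FPKM averaged over the 32 libraries, was 3.38 for the polyadenylated class and 0.687 for the coding-part class. FPKM scales fragments by transcript length and depth, so it compares genes per length, and it depends on the transcript length the authors used.

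**Figure D1:**
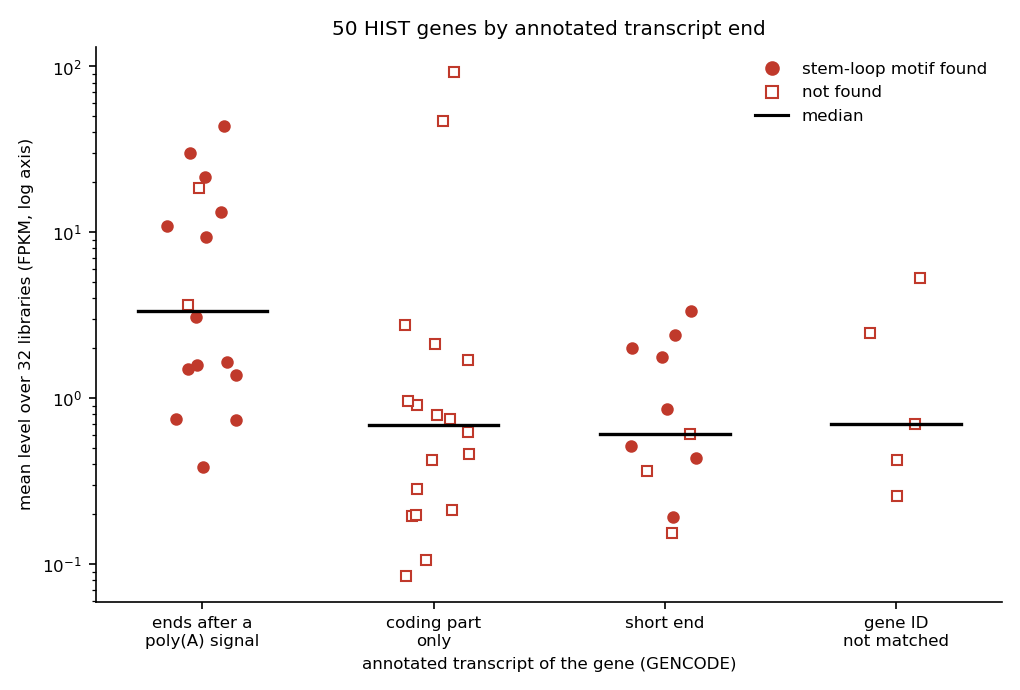
Mean FPKM over 32 libraries (log axis) of the 50 HIST genes, split by the end of their annotated transcript; each point is a gene, filled where the stem-loop motif was found, and bars are medians. Short end marks genes with bases after the coding part that did not meet the poly(A) rule, whatever their length. The medians are 3.38 FPKM for the 16 genes that end after a poly(A) signal and 0.687 for the 18 annotated with the coding part only, where HIST1H2BK (92.4) and HIST1H1C (46.9) stand above the other genes.

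On the same per-length scale most variants were higher than nearly all HIST genes. The lowest variants were H3F3A (8.89 FPKM), H2AFY2 (6.2) and H3F3C (0.2025), each below several HIST genes. H3F3B averaged 434 FPKM, H2AFZ 311 and H2AFY 154. The highest HIST genes were HIST1H2BK at 92.4, HIST1H1C at 46.9, HIST1H2AC at 43.8 and HIST1H2BD at 29.9. Between these stood H2AFV (H2A.Z.2) at 68.2 and H2AFJ (H2A.J) at 51.3. Among H3 and H4 genes of the clusters HIST1H4H (9.36) and HIST1H3E (3.66) led. In 20 members the deposited gene interval is shared with another gene, including H3F3B, H2AFY and H2AFZ, and HIST1H3D is listed under 2 gene IDs, so reads of near-identical or overlapping copies may have been split between genes.

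Promoter sequences of RefSeq (GRCh38.p14), from 250 bases before to 50 after the start, matched 41 of the 50 HIST genes and 9 of the 11 variants. The letters CCAAT, on either strand, stood in 35 of the 41 (85.4%) against 34.6% of 35116 promoters of that length. TATAAA stood in 22 (53.7%) against 11.5%, the octamer ATTTGCAT in 15 (36.6%) against 1.77%, and TTTNGCGC in 9 (22.0%) against 1.79%. The octamer was found in 7 of 10 H2A and 6 of 10 H2B promoters, in 2 of 9 H3 promoters and in no H4 (of 7) or H1 (of 5) promoter. Both H3 matches are the 2 entries of HIST1H3D, which share the window chr6:26199244-26199543 with the H2A gene HIST1H2AD. That window is thus counted more than once in these numbers. A match of letters is a description and not a site of binding. A pair of genes that the results return to often is shown, with matches of either strand to CCAAT and to the TATA and octamer letters in capitals, HIST2H2BE from chr1:149886633-149886932 and HIST1H1C from chr6:26056421-26056720, both on the minus strand.
HIST2H2BE: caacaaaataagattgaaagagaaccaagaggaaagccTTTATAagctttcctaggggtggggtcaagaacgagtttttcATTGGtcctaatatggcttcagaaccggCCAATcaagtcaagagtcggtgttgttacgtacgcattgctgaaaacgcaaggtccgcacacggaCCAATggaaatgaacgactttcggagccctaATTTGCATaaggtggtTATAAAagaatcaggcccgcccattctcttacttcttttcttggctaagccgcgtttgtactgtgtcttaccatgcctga
HIST1H1C: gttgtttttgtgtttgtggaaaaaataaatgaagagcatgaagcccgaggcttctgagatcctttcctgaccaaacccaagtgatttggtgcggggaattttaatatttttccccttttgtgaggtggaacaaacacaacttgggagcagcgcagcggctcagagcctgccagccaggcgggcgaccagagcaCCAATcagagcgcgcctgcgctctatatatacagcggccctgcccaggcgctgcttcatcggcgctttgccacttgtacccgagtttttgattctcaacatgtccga
HIST2H2BE starts 236 bases from the divergent HIST2H2AC, an arrangement common among H2A and H2B genes. HIST3H2A and HIST3H2BB, 230 bases apart, were both called in 6 of 16 comparisons, in the same direction each time, but the comparisons share groups and the pair also moved apart. In WT at 5 days HIST3H2BB was higher (2.04, edgeR adjusted p = 0.00828) while HIST3H2A was at -0.43 and not called. HIST1H2BJ and HIST1H2AG were both called in 5, in the same direction, while in the difference of the ATRi effect HIST1H2BJ was called (-0.77) and HIST1H2AG was not (0.06). HIST2H2BE and HIST2H2AC were never both called in the 7 comparisons that tested both, where HIST2H2AC reached at most 0.603 CPM, the count scaled to library size.

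Library totals ran from 5590061 to 18585999 counts. Levels below are CPM with TMM-normalised library size, and folds and adjusted p-values are from edgeR's quasi-likelihood test on the counts, with Benjamini-Hochberg adjustment over all genes tested and a call at an adjusted p under 0.05. The low-count filter kept 36, 44 and 39 of the 62 members in the first, the second and the third experiment (25, 33 and 29 HIST genes and 10, 10 and 9 variants, with H1FX-AS1 in each). In the first experiment the 2 libraries of a group stood far apart in 5 of 7 groups (chi-square per gene 21.5 to 45.1, against 1.55 to 3.38 in the other groups of the study), which gave it a biological coefficient of variation of 0.187 against 0.036 and 0.0345. MB21D1 (cGAS) was at 1.24 and 1.30 CPM in the cGAS KO against 17.2 and 15.0 in irradiated WT, and TMEM173 (STING) at 9.96 and 9.15 in the STING KO against 83.3 and 52.9. XRCC4 mRNA was at 7.62 and 6.36 in the XRCC4 KO against 9.61 and 7.40, so its level does not check that label. In RPE-1, MB21D1 was at 339 and 345 CPM in the libraries labelled WT cGAS, and the 2 WT libraries differed, at 0.143 and 6.34. The basal epithelial markers were present in MCF10A (KRT5 2281 to 10600 CPM in the first experiment), and so was the luminal marker KRT7 (1861 to 3131). Of 9 retinal pigment epithelium markers listed, 3 were over 1 CPM in both libraries of each RPE-1 group. In RPE-1, OTX2 stood at 19.1 to 27.3 CPM while the visual cycle gene RPE65 was at most 0.0518. LRAT was at most 0.698 CPM in RPE-1, against 2.20 to 25.2 in the first MCF10A experiment. Since these are bulk samples, fewer cells of a type and less RNA per cell cannot be told apart.

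**Figure D2:**
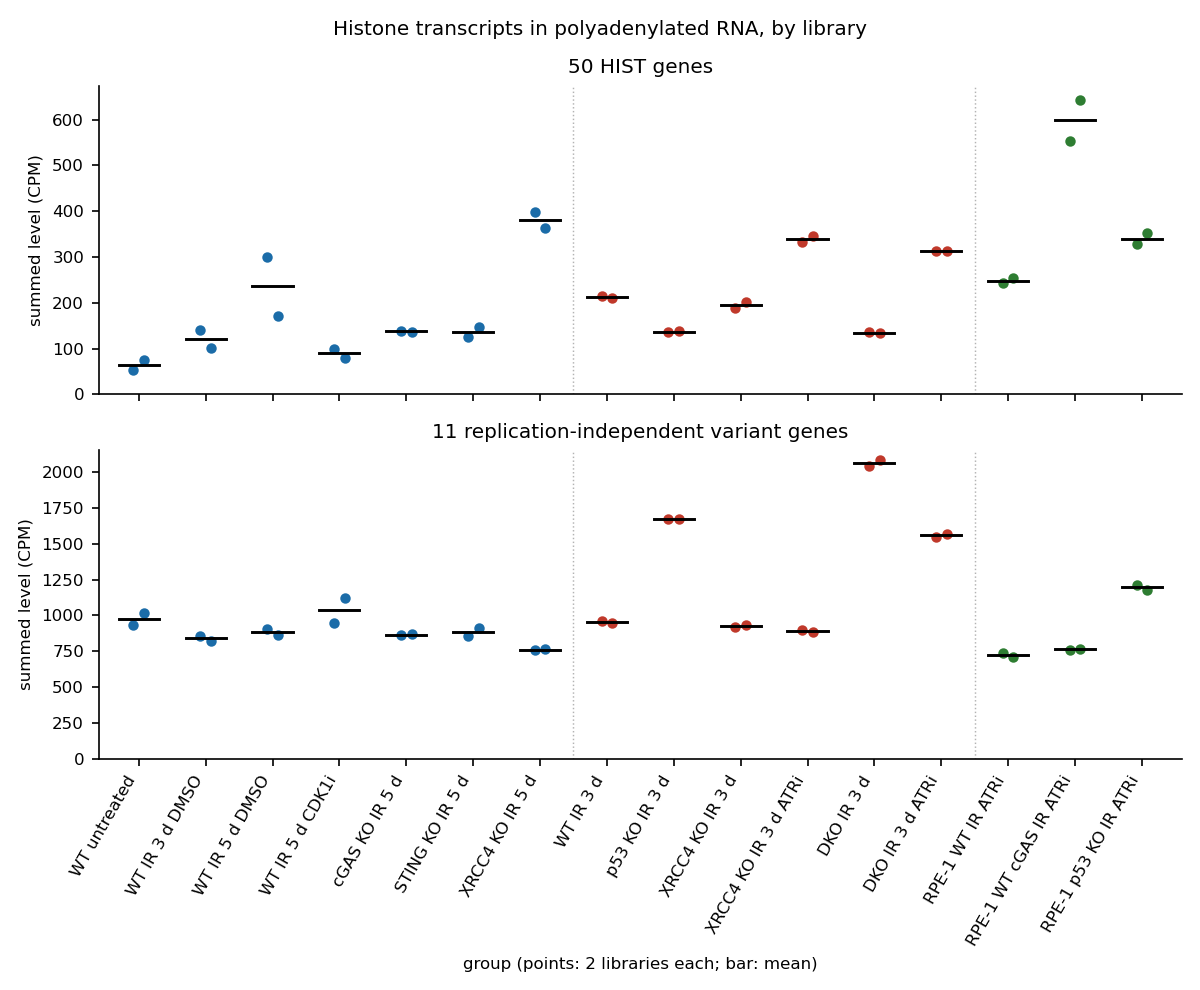
Summed CPM (TMM-normalised) of the 50 HIST genes (top) and the 11 variant genes (bottom) in the 32 libraries; points are libraries, bars are means of 2, and dotted lines part the 3 experiments. HIST sums run from 54.0 in an untreated WT MCF10A library to 644 in an RPE-1 WT cGAS library, and variant sums from 712 to 2084.

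The summed HIST signal was lowest in unirradiated cells and varied with drug and genotype in each experiment. It was 54.0 and 75.1 CPM in the untreated MCF10A libraries, 5.46% and 6.87% of all HIST and variant CPM. Within the same experiment it reached 364 and 398 CPM in the irradiated XRCC4 KO, or 32.3% and 34.5%. The highest sums were in RPE-1 WT cGAS, at 554 and 644 CPM and 42.1% and 45.7%. Variant sums spanned a narrower range in the first experiment, with group means from 760 to 1037 CPM. HIST1H2AC, which encodes an H2A, was the HIST gene with the most CPM in every library except the untreated ones, where HIST3H2A led, and held 19.7% to 41.9% of the HIST sum there.

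Irradiation of WT MCF10A was followed by higher polyadenylated RNA of many HIST genes, by 5 days more than by 3 days in number called. HIST1H2AC stood at 12.7 and 12.6 CPM untreated, at 43.6 and 24.3 after 3 days, and at 83.2 and 48.6 after 5 days. HIST2H2BE, an H2B gene, stood at 3.00 and 3.74, then 11.6 and 8.05, then 38.1 and 18.3. Untreated and irradiated libraries did not overlap for either gene. With 2 libraries in each group this adds no support to a call, and the share of all genes without overlap is not given, here or below. HIST1H4H, an H4 gene, went from 0.219 and 0.909 through 2.82 and 1.54 to 12.9 and 6.4 CPM. At 5 days the log2 fold changes from untreated, by edgeR, were 2.38 (SE 0.32, adjusted p = 0.00111) for HIST1H2AC, 3.07 (SE 0.38, adjusted p = 0.000799) for HIST2H2BE and 4.19 (SE 0.55, adjusted p = 0.000928) for HIST1H4H.

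At 3 days 3 HIST genes were higher and none lower of 25 tested, against 3.65% of all genes called higher and 2.87% lower. The 3 were HIST1H2AC (1.45, SE 0.32), HIST2H2BE (1.6, SE 0.41) and HIST1H3H (2.38, SE 0.49). At 5 days 21 of 25 were higher and none lower, with 15.1% of all genes called higher and 14.3% lower. The median HIST log2 fold change was 1.64 at 3 days and 2.67 at 5 days (2.57 with HIST1H2BF at its bound), beside medians near 0 over all genes. HIST1H2BF had no count in either untreated library, and with 9 counts at 3 days it was not called (edgeR adjusted p = 0.212). At 5 days it had 20 and 4 counts in the 2 libraries and was called (edgeR adjusted p = 0.0429). Over the pooled counts of the 5-day group it was at least 5.75-fold higher, taking 3 counts over the untreated group as the floor. That bound rests mostly on 1 library. HIST3H2A moved otherwise: it was the highest HIST gene in untreated cells (19.6 and 27.2 CPM) and stood at 18.9 and 15.8 after 5 days (log2 fold change -0.43, adjusted p = 0.17 by edgeR).

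Among the variants none was called higher, and H1FX and H2AFY2 were lower at both times. H1FX (linker histone H1.10) fell from 58.1 and 57.2 CPM to 26.6 and 27.2 at 3 days and 28 and 26.2 at 5 days. Its log2 fold changes were -1.10 (SE 0.18) and -1.09 (SE 0.18), with edgeR adjusted p of 0.0111 and 0.00204. H1FX-AS1 overlaps H1FX on the other strand, and the counting was not stated to use strand, so reads from the pair cannot be told apart. H2AFY2 (macroH2A2) fell from 30.6 and 26.2 to 18.1 and 17.9 CPM at 5 days (-0.66, edgeR adjusted p = 0.00578). H2AFZ, at 114 and 205 CPM untreated and 97.6 and 122 at 5 days, was not called.

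From 3 to 5 days no histone gene was called by edgeR, where 0.217% of all genes were called higher and 0.0461% lower. At an unadjusted p under 0.05, 13 HIST genes and no variant passed, DESeq2 called 4 histone genes and limma on FPKM none. The 2 irradiated groups share the untreated libraries in the folds above. Of 36 genes of DNA replication, 0 were called higher and 1 lower at 5 days, none of 24 G2-M genes was called, and 15 of 20 p53 targets were higher; SLBP was at 44.1 CPM untreated and 35.9 at 5 days (log2 -0.30, edgeR adjusted p = 0.12). Of 24 epidermal differentiation genes, 8 were higher at 5 days and none lower, with a median log2 fold change of 3.53; their part in the histone result was not tested. The 8 mesenchymal markers (6 tested, 1 higher and none lower at 5 days) differed widely between libraries of a group, with sums of 461 and 2314 CPM untreated 457 and 3965 at 5 days, and 217 and 743 with CDK1i (none higher, 2 lower). Single libraries decided part of these counts: the 5 histone calls at 3 days became 1 without untreated replicate 1, 0 without 3-day replicate 1 and 1 without 3-day replicate 2. With the replicate number as a block in a fit of the 4 WT groups, the 3-day count was 3, HIST1H3H (adjusted p = 0.0574) and H2AFY2 (adjusted p = 0.0807) no longer passing by edgeR. The 23 at 5 days became 15 without untreated replicate 1 and 12 without 5-day replicate 1, which carried the higher HIST sum (300 against 171 CPM), and the 5-to-3-day count became 4 without 5-day replicate 2.

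**Figure D3:**
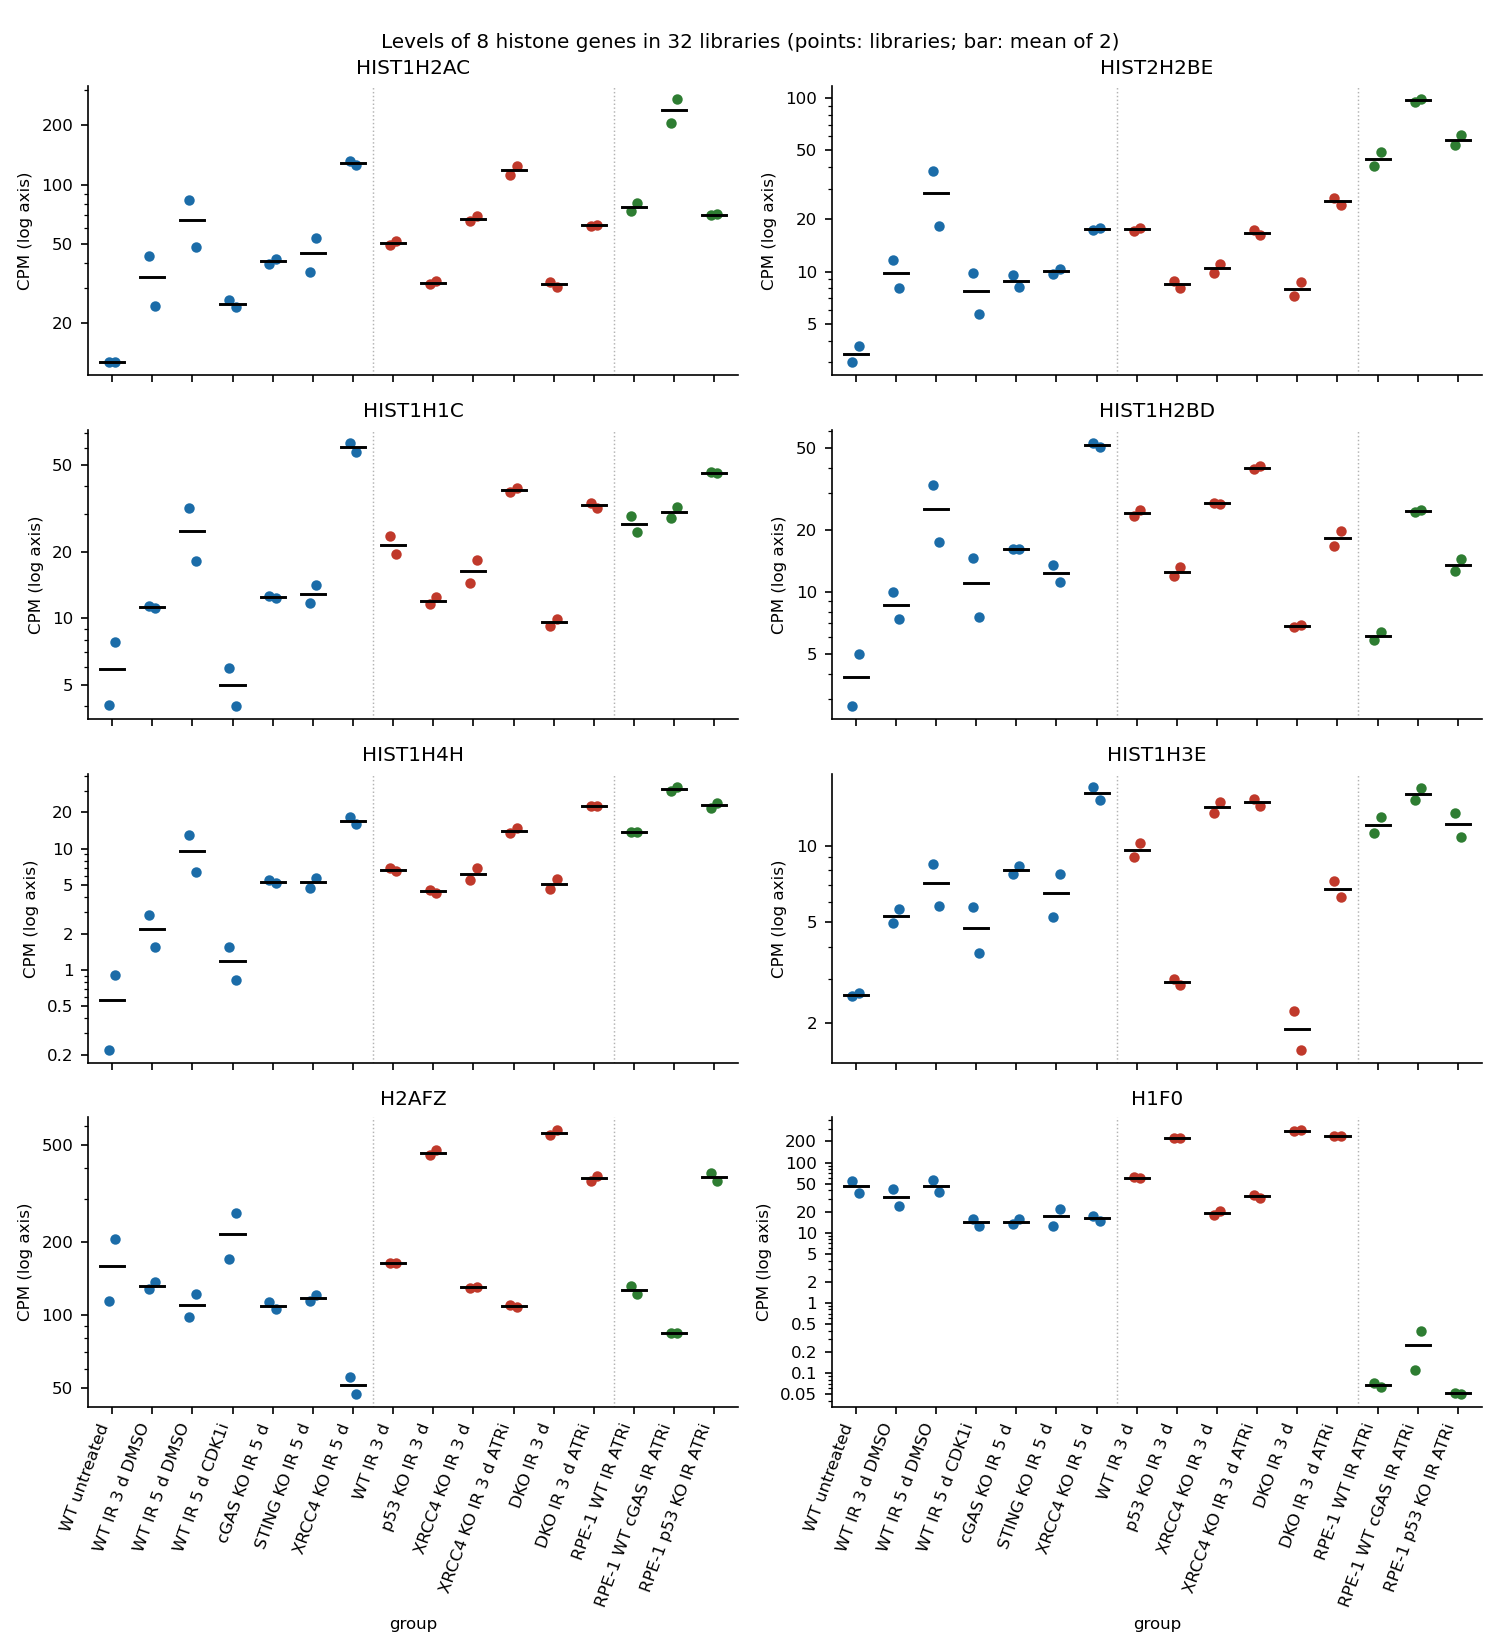
CPM (log axis) of 6 HIST genes and the variants H2AFZ and H1F0 in the 32 libraries; points are libraries, bars are means of 2, and dotted lines part the 3 experiments. HIST1H4H rises from 0.219 and 0.909 CPM untreated to 12.9 and 6.4 at 5 days in WT MCF10A, and H1F0 is at most 0.392 CPM in RPE-1.

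With CDK1i the irradiated WT cells had less of these HIST transcripts than with DMSO. CDK1 is the kinase that drives entry into mitosis. HIST1H4H was at 1.56 and 0.825 CPM with CDK1i against 12.9 and 6.4 with DMSO, a log2 fold change of -2.98 (SE 0.44, edgeR adjusted p = 0.005). HIST1H1C was at 5.97 and 3.99 against 31.7 and 18.4 (-2.32, SE 0.32, adjusted p = 0.00386 by edgeR), and HIST2H2BF and HIST1H3H fell by 2.45 and 2.37. HIST1H2AC was at 25.9 and 24.0 CPM against 83.2 and 48.6 (-1.40, SE 0.30). The drug and DMSO libraries did not overlap for these genes, and the CDK1i levels of HIST1H2AC were above the untreated ones.

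Among 25 HIST genes tested 9 were lower and none higher with CDK1i (7.37% and 4.72% of all genes), with a median of -1.40. Among variants H2AFZ, whose mRNA is usually highest in dividing cells, was higher at 169 and 262 CPM against 97.6 and 122 (0.98, SE 0.26, edgeR adjusted p = 0.0407). H1F0, a linker histone associated with non-dividing cells, was lower at 15.8 and 12.6 against 56.2 and 37.5 (-1.72, SE 0.34, edgeR adjusted p = 0.0131). SLBP was higher (0.64, edgeR adjusted p = 0.0143), as were 9 of 36 DNA replication genes and 2 of 24 G2-M genes, whose summed level differed between the 2 CDK1i libraries (1224 and 3110 CPM). The part of these lists in the histone result was not tested. The 11 histone calls became 3 without DMSO replicate 1 and 4 without CDK1i replicate 2.

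In the cGAS KO and STING KO, irradiated and collected at 5 days, a few HIST genes were lower than in WT, and the same 3 variants, H1F0, H1FX and H2AFY2, were lower in each. The 2 comparisons share the WT libraries. HIST2H2BE was at 9.51 and 8.13 CPM in the cGAS KO, at 9.64 and 10.4 in the STING KO and at 38.1 and 18.3 in WT. Its log2 fold changes were -1.67 (SE 0.34, adjusted p = 0.011) and -1.49 (SE 0.34, adjusted p = 0.016) by edgeR. HIST1H2BE, another H2B gene, was lower by 2.55 (SE 0.57) and by 2.20 (SE 0.56) on the log2 scale, from 2.54 and 1.42 CPM in WT.

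HIST1H1C, at 12.6 and 12.4 CPM in the cGAS KO, passed there (-1.0, edgeR adjusted p = 0.0493) and not in the STING KO, at 11.8 and 14.2 (-0.95, adjusted p = 0.0578 by edgeR); the difference between the 2 knockouts was not tested. In the cGAS KO 3 of 25 HIST genes were lower and none higher, with 6.88% of all genes lower and 6.65% higher. In the STING KO 5 were lower and none higher, with 7.73% and 7.43%. H1F0 was at 13.4 and 15.4 CPM in the cGAS KO and 12.6 and 21.5 in the STING KO against 56.2 and 37.5 in WT. H2AFY2 was lower by 1.68 and 1.09. No DNA replication or G2-M gene was called in either knockout. The 6 cGAS calls fell to 1 without WT replicate 1, without cGAS KO replicate 1 and without cGAS KO replicate 2, and the 8 STING calls to 2 without WT replicate 1, 1 without STING KO replicate 1 and 3 without STING KO replicate 2.

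XRCC4 is the partner of DNA ligase IV in non-homologous end joining. At 5 days the XRCC4 KO had the highest HIST sum of the first experiment. Of 25 HIST genes tested, 4 were called higher than in WT, 1 lower and 20 were not called (12.4% of all genes were called in each direction). HIST1H1C was at 63.1 and 57.2 CPM against 31.7 and 18.4, a log2 fold change of 1.27 (SE 0.28, edgeR adjusted p = 0.0101). HIST1H2BD was at 52.7 and 50.5 against 32.9 and 17.5 (1.04), and HIST1H3E at 17.1 and 15.1 against 8.44 and 5.80 (1.18, SE 0.25, adjusted p = 0.00718 by edgeR). HIST1H2AC rose as well, to 132 and 125 CPM (0.96), and HIST3H2A fell by 0.78, to 12 and 8.0. Knockout and WT libraries did not overlap for any of these 5, which were picked because they were called.

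H2AFZ moved the other way, to 55.5 and 47.3 CPM from 97.6 and 122 (-1.09, SE 0.27, edgeR adjusted p = 0.0167). H1F0, H1FX and H2AFY2 fell as well. Genes of the G2-M list were lower in 19 of 24 cases (median -2.62), DNA replication genes in 9 of 36 with 1 higher, and SLBP fell by 0.41 (edgeR adjusted p = 0.0489); their part in the histone result was not tested. The 9 histone calls became 4 without WT replicate 2, 3 without XRCC4 KO replicate 1 and 4 without XRCC4 KO replicate 2.

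The second experiment had smaller differences between the libraries of a group and more calls over all genes. In the p53 KO all 10 variants tested were higher than in WT, while most HIST genes were not called. Among 33 HIST genes tested 12 were lower, 2 higher and 19 not called, with a median log2 fold change of -0.615. Over all genes 25.7% were higher and 27.3% lower. HIST1H3E stood at 2.99 and 2.82 CPM against 9.0 and 10.2 in WT (log2 -1.73, SE 0.16, edgeR adjusted p = 1.67e-09). HIST2H2BE stood at 8.86 and 8.01 against 17.1 and 17.9 (-1.05, SE 0.11) and HIST1H2BD at 11.8 and 13.1 against 23.2 and 24.9 (-0.95, SE 0.10). HIST1H2AC was at 31.3 and 32.6 against 49.6 and 51.6 (-0.67, SE 0.07).

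The 2 HIST genes that were higher in the p53 KO were HIST1H3G (2.83 and 2.69 against 1.45 and 0.877 CPM; 1.27, SE 0.26) and HIST1H2BH (1.73 and 1.58 against 0.900 and 0.644; 1.12, SE 0.37). The largest variant change was that of H1F0, at 227 and 226 CPM against 61.2 and 60.7 (1.90, SE 0.05, edgeR adjusted p = 1.64e-20). H2AFZ followed, at 453 and 477 against 164 and 164 (1.5, SE 0.04), then H1FX (1.22) and H2AFX (0.98). All 36 DNA replication genes and all 24 G2-M genes were higher (medians 1.51 and 2.22), all 20 p53 targets were lower (median -1.73), and SLBP rose by 0.87 on the log2 scale, from 46.4 to 85.0 CPM. Of 27 histone chaperones and deposition factors 21 were higher and 3 lower. The 8 mesenchymal markers summed to 986 and 1024 CPM against 804 and 824 in WT (6 tested, 4 higher and 1 lower). What part these lists have in the histone result was not tested.

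At 3 days the XRCC4 KO had 4 of 33 HIST genes tested higher and 14 lower than WT, with 28.7% of all genes higher and 27.5% lower. HIST1H2AC was higher, at 65.2 and 69.2 CPM against 49.6 and 51.6 (0.41, SE 0.06, edgeR adjusted p = 5.24e-06), and so was HIST1H3E at 13.5 and 14.9 against 9.0 and 10.2 (0.55). HIST2H2BE was lower at 9.84 and 11.1 against 17.1 and 17.9 (-0.75), HIST3H2A fell by 0.86, and HIST1H1C stood at 14.4 and 18.4 against 23.7 and 19.7 (-0.40, SE 0.11). HIST1H1C was thus lower in the XRCC4 KO at 3 days and higher at 5 days, each against the WT of its own experiment; the difference was not tested. Among variants 8 of 10 were lower, H1F0 most (17.7 and 20.2 against 61.2 and 60.7 CPM; -1.69, SE 0.07), and only H2AFY was higher (0.59).

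In the XRCC4 p53 DKO compared with the XRCC4 KO all 10 variants tested were higher. Of 33 HIST genes tested 7 were higher, 8 lower and 18 not called (32.1% of all genes higher, 32.8% lower). HIST1H3E fell from 13.5 and 14.9 to 2.24 and 1.57 CPM (-2.88, SE 0.17, edgeR adjusted p = 4.85e-14) and HIST1H2BD from 26.8 and 26.7 to 6.71 and 6.87 (-1.98, SE 0.11). HIST1H2AC fell by 1.10, to 32.3 and 30.4. HIST1H3G, in contrast, was at 3.86 and 3.96 against 0.328 and 0.352 (3.50, SE 0.33), and HIST1H2BJ at 7.05 and 5.53 against 2.30 and 2.75 (1.32). H1F0 rose to 281 and 287 CPM (3.91, SE 0.06, edgeR adjusted p = 8.31e-26) and H2AFZ to 551 and 574 (2.12, SE 0.04).

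Set against the p53 KO, the DKO had 6 of 33 HIST genes tested higher, 5 lower and 22 not called. Of 10 variants 5 were higher and 2 lower. Over all genes 24.7% were higher and 24.9% lower, also smaller shares than against the XRCC4 KO (32.1% and 32.8%). HIST1H2BD was lower by 0.87 and HIST1H2BJ higher by 0.91 (SE 0.18), while HIST1H2AC differed by -0.02 (SE 0.07, edgeR adjusted p = 0.817). The DKO libraries enter both comparisons. The HIST sum was 134 and 136 CPM in the DKO and 136 and 138 in the p53 KO, and the variant sum 2045 and 2084 against 1673 and 1676.

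ATRi raised HIST transcripts in both XRCC4-deficient lines. ATR is the kinase that signals stalled replication and holds cells in G2. In the XRCC4 KO 15 of 33 HIST genes were higher with the drug and none lower, with 6.49% of all genes called higher and 10.7% lower. HIST1H2AC went from 65.2 and 69.2 to 111 and 125 CPM (0.81, SE 0.06, edgeR adjusted p = 7.03e-11), HIST1H1C from 14.4 and 18.4 to 37.8 and 39.3 (1.24, SE 0.10), and HIST1H4H from 5.51 and 6.97 to 13.4 and 14.8 (1.18, SE 0.13). HIST1H3E stood at 15.3 and 14.4 against 13.5 and 14.9 (0.07, SE 0.11, edgeR adjusted p = 0.725). Among variants H1F0 rose by 0.81 and H2AFZ fell by 0.25.

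In the DKO 28 of 33 HIST genes were higher with ATRi and 1, HIST1H3G, lower (25.9% of all genes higher, 32.5% lower). HIST1H4H went from 4.64 and 5.65 to 22.4 and 22.8 CPM (2.14, SE 0.11, edgeR adjusted p = 2.32e-14), HIST1H3E from 2.24 and 1.57 to 7.23 and 6.25 (1.81, SE 0.19) and HIST2H2BE from 7.22 and 8.67 to 26.6 and 24.3 (1.68, SE 0.10). HIST1H1C rose to 33.6 and 32 from 9.23 and 9.95 (1.77, SE 0.10). Treated and untreated libraries did not overlap for these 4 genes, and HIST1H2AC, HIST1H2BD and HIST3H2A rose by 0.99, 1.43 and 1.22. None of the 10 variants was higher and 7 were lower, among them H2AFV (-0.72), H2AFY (-0.65) and H2AFZ (-0.63).

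The difference of the ATRi effect, DKO minus XRCC4 KO, was tested directly. It was called for 13 of 33 HIST genes, 10 above 0 and 3 below, and for 6 of 10 variants, all below 0 (13.1% of all genes above, 21% below). HIST1H3E differed by 1.74 (SE 0.22, edgeR adjusted p = 8.07e-07) and HIST1H4E, at 0.783 to 4.22 CPM in these groups, by 1.81. HIST2H2BE differed by 0.99 (SE 0.16) and HIST1H4H by 0.95 (SE 0.19), while HIST1H2AC differed by 0.18 (edgeR adjusted p = 0.128). The 3 HIST genes below 0 were HIST1H3G (-1.42), HIST1H2BJ (-0.77) and HIST1H2BK (-0.38). For the 24 G2-M genes ATRi lowered all in both lines (medians -1.43 and -1.15), and the 36 DNA replication genes were lower in 32 and 36 cases. The ATRi effect on SLBP differed too (-0.51, edgeR adjusted p = 6.67e-05): it was at 36.1 and 39.1 CPM without and with ATRi in the XRCC4 KO, and at 86.0 and 65.2 in the DKO. The part of these lists in the histone difference was not tested.

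**Figure D4:**
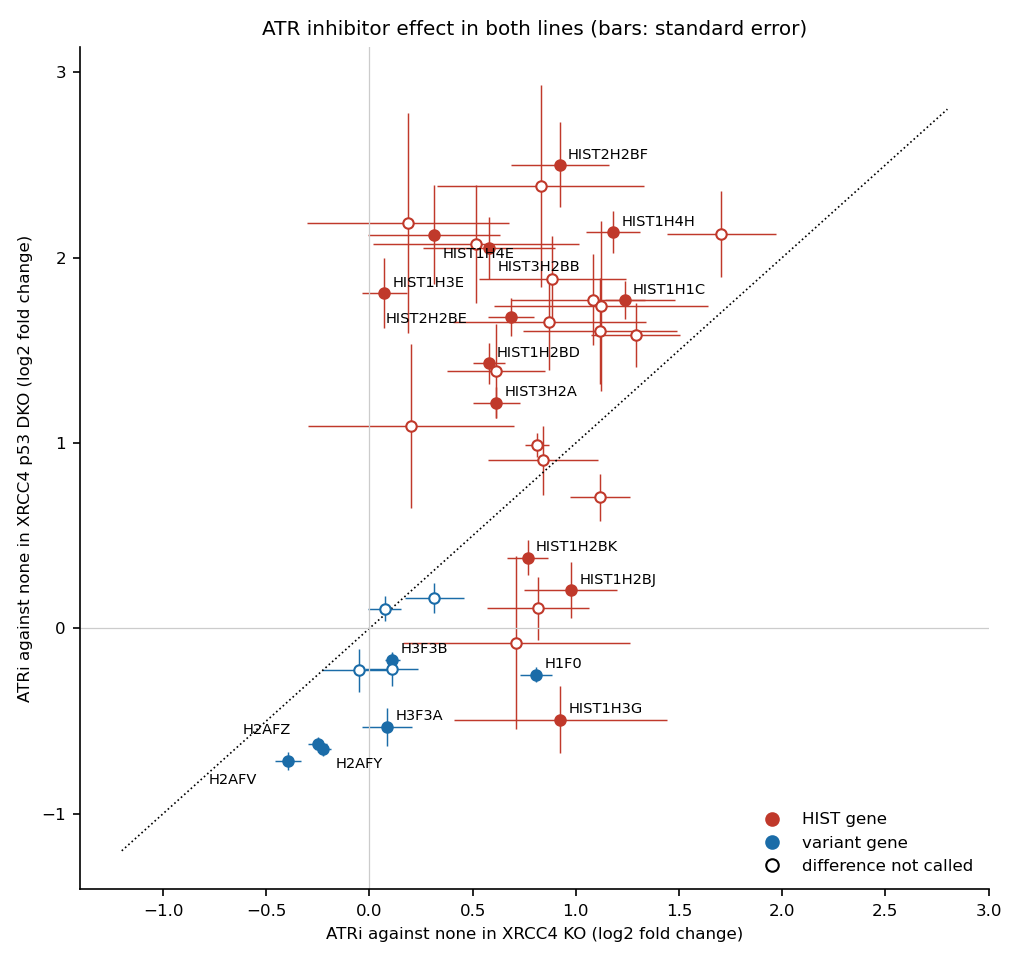
Log2 fold change with ATRi in the XRCC4 KO (x axis) and in the XRCC4 p53 DKO (y axis) for 39 histone genes with a standard error under 0.6 in both; bars are standard errors, filled points have a called difference between the lines, and the dotted line marks equal effects. HIST1H3E lies far above the line (0.07 and 1.81), and H1F0 far below it (0.81 and -0.25).

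In RPE-1, every group was irradiated with ATRi, so the comparisons are between genotypes. In the p53 KO 21 of 29 HIST genes were higher than in WT and none lower, and 5 variants were higher and 2 lower (34.2% of all genes higher, 32.5% lower). HIST1H4E, an H4 gene, was at 11.9 and 12.8 CPM against 4.0 and 3.36 (1.75, SE 0.16, edgeR adjusted p = 2.09e-08). HIST1H1C was at 46.5 and 45.9 against 29.2 and 24.8 (0.78, SE 0.08) and HIST1H2BD at 12.6 and 14.4 against 5.85 and 6.34 (1.14, SE 0.13). HIST1H2AC, at 69.9 and 70.6 against 73.6 and 80.5, was not called (-0.13, SE 0.19, edgeR adjusted p = 0.586). H2AFZ was higher, at 383 and 356 against 131 and 121 (1.55, SE 0.05, edgeR adjusted p = 7.37e-15), and H2AFY2 lower at 0 and 0.202 CPM against 4.71 and 4.69. H1F0 was at 0.392 CPM or less in these 6 libraries and was not tested. The direction of HIST calls in the p53 KO was mostly down in MCF10A without ATRi and up in RPE-1 with ATRi; the lines differ in drug as well as origin, and the difference was not tested.

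RPE-1 labelled WT cGAS had 20 of 29 HIST genes tested higher and none lower than WT, with 29.8% of all genes higher and 30% lower. HIST1H2AC was at 203 and 270 CPM against 73.6 and 80.5 (1.62, SE 0.18, edgeR adjusted p = 0.00339), HIST2H2BE at 95.1 and 98.5 against 40.8 and 48.7 (1.11, SE 0.08) and HIST1H2BD at 24.4 and 24.8 against 5.85 and 6.34 (2.01, SE 0.11). HIST1H1C, at 28.7 and 32.2 against 29.2 and 24.8, was not called (0.18, SE 0.09, edgeR adjusted p = 0.0798). HIST1H2BO had no count in WT and was at least 5.20-fold higher here and at least 8.13-fold higher in the p53 KO. Variants split, 4 higher and 5 lower: H1FX, H2AFJ, H2AFY2 and H3F3B rose, and H2AFV, H2AFZ, H2AFX, H2AFY and H3F3A fell, H2AFZ to 83.9 and 84.3 CPM (-0.59, SE 0.05). G2-M genes were lower in 24 of 24 cases (median -2.11) and DNA replication genes in 28 of 36 with 3 higher, where in the p53 KO all 24 and 32 of 36 were higher; their part in the histone result was not tested. Both comparisons share the WT libraries. The 8 mesenchymal markers moved with both: their sum was 53750 and 54630 CPM in WT, 17100 and 18630 in the p53 KO (1 higher, 5 lower) and 21590 and 22910 in WT cGAS (1 higher, 6 lower), with COL1A2 at 0.858 CPM or less. The summed luminal markers stood at 802 and 856, 398 and 408, and 245 and 276 CPM in the same order. The part of these markers in the histone results was not tested.

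**Figure D5:**
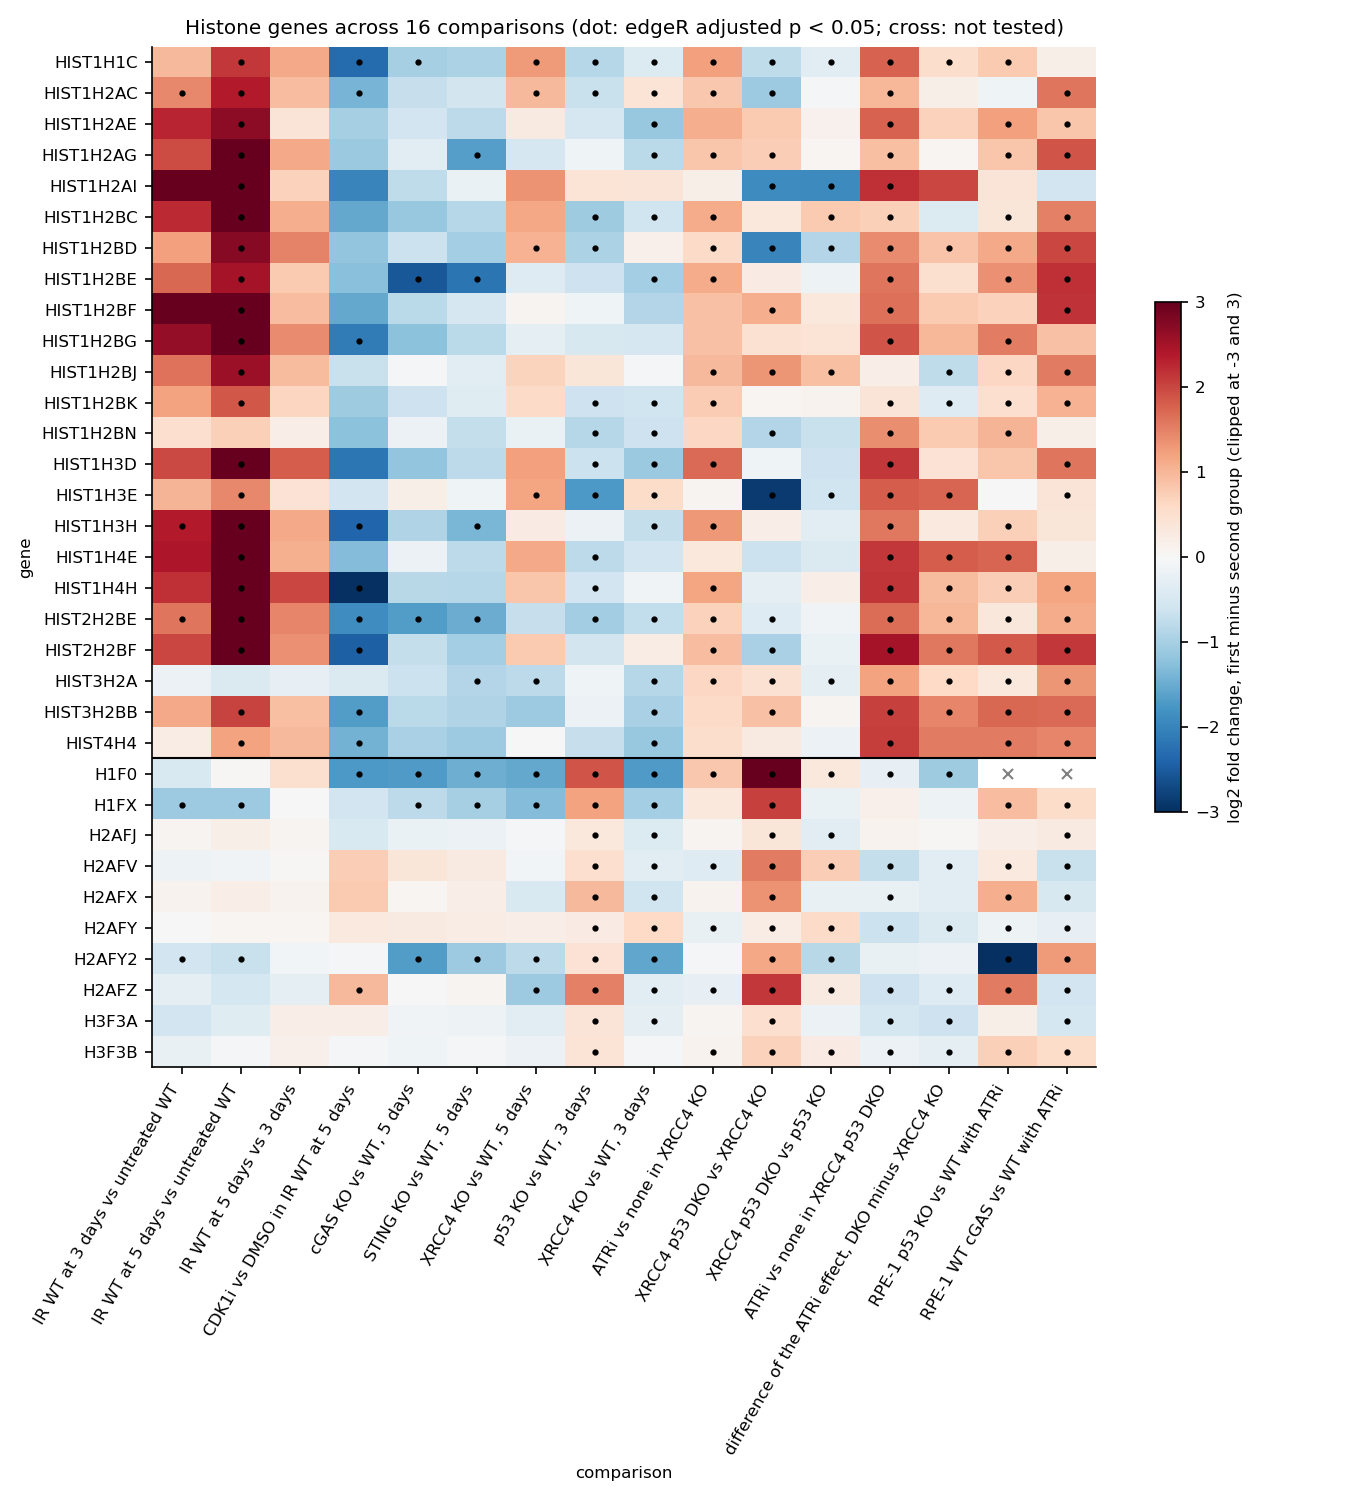
Log2 fold changes, first minus second group, of 23 HIST genes tested in all 16 comparisons (top) and 10 variants (bottom), clipped at -3 and 3; dots mark an edgeR adjusted p under 0.05 and crosses mark H1F0, not tested in RPE-1. All 10 variants carry a dot in the MCF10A p53 KO, and no gene carries one for 5 against 3 days.

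Genes of histone mRNA 3′ end processing and control (28 tested) are given as called higher and lower, with the shares over all genes in brackets. They numbered 20 and 3 in the MCF10A p53 KO (25.7% and 27.3%), 12 and 5 in the XRCC4 KO at 3 days (28.7% and 27.5%), 15 and 8 in the DKO against the XRCC4 KO (32.1% and 32.8%) and 9 and 4 in the DKO against the p53 KO (24.7% and 24.9%). With ATRi there were 2 and 2 in the XRCC4 KO (6.49% and 10.7%) and 6 and 13 in the DKO (25.9% and 32.5%). In RPE-1 there were 16 and 3 in the p53 KO (34.2% and 32.5%) and 6 and 6 in WT cGAS (29.8% and 30%). Each comparison of the first experiment had at most 4 higher and 6 lower. The shares over all genes ran from 0.0461% to 15.1% between those comparisons and directions, so these maxima cannot be set against a single share. SLBP was called in 9 of the 16 comparisons, 4 times higher (CDK1i, both p53 KO comparisons and the DKO against the XRCC4 KO) and 5 times lower. XRN1, an exonuclease of RNA decay, was higher at 5 days in WT (0.81), with ATRi in the DKO (0.60) and in RPE-1 WT cGAS (0.82), and lower with CDK1i (-0.73), in the XRCC4 KO at 5 days (-0.67) and in the DKO against both single knockouts (-0.28 and -0.32). ZCCHC6 (TUT7), which adds uridines to RNA ends, was higher in RPE-1 WT cGAS (1.27) and with ATRi in the DKO (0.59), and lower with CDK1i (-0.43). Of the 27 chaperones and deposition factors, 19 were higher and 6 lower in the RPE-1 p53 KO, and 5 and 21 with ATRi in the DKO.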

How the data were processed

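Counts per gene for 32 libraries of poly(A)-selected RNA were used as deposited, with the authors' FPKM for levels compared between genes. Per the submitters' processing notes the tools were bcl2fastq, FastQC, STAR, Cuffnorm and DESeq2 on hg19, with no versions; the roles of the tools, the strand setting and the treatment of multi-mapped reads are not given in the sources used here. Between 96.0% and 97.3% of the deposited values of a library, zeros included, were whole and the rest had decimals, so they were treated as estimated counts and rounded. Members and gene lists were chosen with earlier results of these data known. Named genes were listed histone genes, in each comparison and direction the 6 called members that changed most (mean CPM of 1 or more), and the 3 highest members of each class by FPKM; others were chosen after their values were seen. Each experiment was filtered, TMM-normalised and fitted on its own with all its groups (edgeR 4.0.16, R 4.3.3), 15190, 16632 and 15469 genes of 60332 being tested, with 7, 6 and 3 residual degrees of freedom. Levels in different experiments were set side by side without a test. The scripts were tested on simulated data. Alternatives were DESeq2 1.42.0, limma 3.58.1 on log2(FPKM + 1), median-ratio size factors, no filter, only the compared groups, a replicate block and leaving out each library. Replicate numbers of the sample titles paired the 4 WT MCF10A groups of the first experiment, where deviations of same-numbered libraries correlated at 0.245 to 0.439 in all 6 pairs of groups; over its 7 groups they ran from -0.265, with 7 of 21 pairs over 0.1, and in the others no pair was over 0.1. Gene positions printed here are GRCh38 from GENCODE release 29 and RefSeq, never converted from hg19.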

Additional observations from a re-analysis of the deposited data

Results flagged for a closer look

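The effect of ATRi differed between the XRCC4 p53 DKO and the XRCC4 KO, by edgeR's test of the difference itself, for 19 histone genes; values are log2, DKO minus XRCC4 KO. Among H3 and H4 genes the difference was above 0 for HIST1H4E (1.81), HIST1H3E (1.74) and HIST1H4H (0.95). The H2A and H2B genes above 0 were HIST2H2BF (1.58), HIST3H2BB (1.47), HIST2H2BE (0.99), HIST1H2BD (0.85) and HIST3H2A (0.60), and the linker gene HIST1H1C differed by 0.53. HIST1H3J had a fitted difference of 5.80, but it had no count in the XRCC4 KO with ATRi, so this value depends on the prior count and is no bound. Below 0 were the HIST genes HIST1H3G (-1.42), HIST1H2BJ (-0.77) and HIST1H2BK (-0.38). The variants below 0 were H1F0 (-1.06), H3F3A (-0.62), H2AFY (-0.43), H2AFZ (-0.38), H2AFV (-0.32) and H3F3B (-0.28). Groups of 2 libraries are too small for a search for single libraries that stand apart within a group.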

How the results depend on the processing

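Counts of histone genes called moved most in the first experiment. Fitting only the groups compared gave 0 calls at 3 days, 10 at 5 days, 0 for CDK1i and 2 for the STING KO, against 5, 23, 11 and 8. At 3 days there were 2 calls with no filter, 8 with DESeq2 and 3 with limma on FPKM. For 5 against 3 days there was 1 call with no filter and 4 with DESeq2, against 0. Leaving out each library gave 0 to 4 calls at 3 days, 12 to 22 at 5 days, 0 to 4 for 5 against 3 days, 3 to 14 for CDK1i, 1 to 5 for the cGAS KO, 1 to 9 for the STING KO and 3 to 10 for the XRCC4 KO at 5 days. In the second experiment the ranges were 21 to 23 for the p53 KO, 18 to 24 for the XRCC4 KO, 15 to 19 for ATRi in it, 22 to 24 and 12 to 16 for the DKO against the XRCC4 KO and the p53 KO, 29 to 32 for ATRi in the DKO and 16 to 19 for the difference of the ATRi effect. In RPE-1 they were 24 to 29 for the p53 KO and 25 to 28 for WT cGAS. A group left with 1 library was assumed to vary like the others.

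Among the genes named by rule, limma on log2(FPKM + 1) turned 6 called directions: HIST1H2BN (0.0745) and HIST2H2BF (0.106) in the DKO against the XRCC4 KO, HIST1H3E (0.0811) in the DKO against the p53 KO, H3F3B (0.0122) and H2AFX (0.0434) with ATRi in the DKO, and H2AFY (0.0038) in the RPE-1 p53 KO. Their adjusted p under limma ran from 0.684 to 0.966, and the cause was not tested. Of 270 calls of the genes named by rule, a set that includes H1FX-AS1, 268 held with median-ratio size factors, 248 with no filter and 219 with DESeq2. Calls of other members were not followed in this way.

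With the replicate block over all groups of an experiment, 267 of the same 270 calls held. Over all histone genes, 5 against 3 days had 2 calls, CDK1i 16 and the XRCC4 KO at 5 days 11, against 0, 11 and 9. In a fit of the 4 WT groups, chosen after seeing the data, the block gave 3 calls at 3 days, 20 at 5 days, 0 for 5 against 3 days and 14 for CDK1i, and the same fit without it 0, 15, 0 and 1. The block changed no other count by over 1.5 times. Low counts kept 17 to 25 of the 50 HIST genes out of the tests.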
